A study of Homo sapiens with 12 samples.

Results

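The heat shock genes examined here were the cochaperone gene DNAJB1, the Hsp70 family genes HSPA8, HSPA1A, HSPA1B and HSPH1, the Hsp90 gene HSP90AA1, the small heat shock protein gene HSPB1 and the Hsp70 cochaperone gene BAG3. TECR and WDR20 were added because their exons lie on the strand opposite to exons of DNAJB1 and HSP90AA1. All 10 genes were taken by name from a count table of 61255 rows, and 3 of them, DNAJB1, TECR and HSPA8, passed the filter on low counts that 13108 rows passed. The cells were Huh-7.5, a human hepatoma line, in 3 engineered derivatives that each expressed the peroxidase APEX2, as APEX-NES, APEX-NLS or APEX-G3BP1 (a fusion to the stress granule protein G3BP1). Each derivative was left as mock or given 0.5 mM sodium arsenite for 45 minutes, with 2 libraries in each of the 6 groups and 12 in all. The labels do not say whether libraries of a group came from separate cultures, so the p-values measure the spread between these libraries, which may be technical. Every group carried an APEX2 construct, and unmodified Huh-7.5 cells were not analysed here. Whether each derivative is 1 clone is not given in the sources used here.

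Arsenite is a thiol-reactive poison that disturbs protein folding and sets off the heat shock response. Misfolded protein occupies the chaperones that otherwise hold the transcription factor HSF1 inactive, and the freed factor binds repeats of the letters GAA, alternating with their complement TTC, in the promoters of chaperone genes. Hsp70 proteins bind and release unfolded chains with ATP, J-domain proteins such as DNAJB1 start that cycle, and nucleotide exchange factors such as BAG3 and HSPH1 complete it. Hsp90 finishes the folding of kinases and receptors, and HSPB1 holds damaged proteins in a soluble state.

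The letters GAANNTTC and TTCNNGAA, 2 adjoining repeats of the heat shock element with N for any base, were searched on both strands of promoter windows that run from 250 bases before to 50 after each RefSeq start site (GRCh38.p14). Each motif is its own complement, and both can overlap in a longer run of repeats. At least 1 window of 6 of the 10 genes held one of them, and 13.5% of the 35116 windows of all genes did so. The first is a count of genes and the second a share of windows. DNAJB1, HSP90AA1, WDR20 and TECR have several windows each, which gives them more room for a match. These 6 were DNAJB1, HSPA8, HSPA1A, HSPA1B, HSPB1 and HSP90AA1. No match was found in the windows of TECR, WDR20, BAG3 and HSPH1, which says only that these letters are not in those windows. The stretches below, written 5′ to 3′ in the direction of the gene with the motif in capitals, are shown because they carry the element through which heat shock genes are known to be induced, and they are cut to bases outside annotated exons. They lie at chr19:14518421-14518647 (minus strand) for DNAJB1, chr6:31815293-31815463 (plus) for HSPA1A, chr6:31827488-31827734 (plus) for HSPA1B and chr7:76302423-76302543 (plus) for HSPB1.
DNAJB1: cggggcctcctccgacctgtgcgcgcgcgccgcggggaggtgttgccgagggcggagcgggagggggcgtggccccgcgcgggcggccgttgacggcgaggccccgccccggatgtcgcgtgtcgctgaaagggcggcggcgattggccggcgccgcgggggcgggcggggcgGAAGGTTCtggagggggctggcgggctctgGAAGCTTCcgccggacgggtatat
HSPA1A: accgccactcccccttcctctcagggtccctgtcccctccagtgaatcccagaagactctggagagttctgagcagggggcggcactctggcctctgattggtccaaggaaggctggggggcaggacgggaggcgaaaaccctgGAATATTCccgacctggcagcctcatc
HSPA1B: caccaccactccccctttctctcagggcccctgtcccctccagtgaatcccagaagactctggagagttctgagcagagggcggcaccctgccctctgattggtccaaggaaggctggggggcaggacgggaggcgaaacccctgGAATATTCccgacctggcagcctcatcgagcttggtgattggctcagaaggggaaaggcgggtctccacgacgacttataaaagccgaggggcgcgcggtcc
HSPB1: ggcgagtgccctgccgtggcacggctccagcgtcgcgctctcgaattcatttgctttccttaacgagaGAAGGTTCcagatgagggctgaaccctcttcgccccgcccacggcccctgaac
DNAJB1 had matches starting at positions -77 and -47 from the start site whose window is shown in part above. Another of its windows, chr19:14517888-14518187, had 1 match at position 1, outside the stretches shown. Its window at chr19:14529222-14529521 held none. HSPA1A had 1 at -106 and HSPA1B 1 at -105, with the same letters in both, and HSPB1 had 1 at -182. HSPA8 and a window of HSP90AA1 held runs of 3 repeats, at -230 and -55 for HSPA8 and at -88 for HSP90AA1, a feature of 0.49% of all windows. A match is a description of the sequence and not a measured binding site.

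Coordinates of the genes are from GENCODE release 29 (GRCh38). DNAJB1 spans chr19:14514770-14529770 on the minus strand and TECR, which encodes the reductase of the last step of very long chain fatty acid elongation, spans chr19:14517085-14565980 on the plus strand. Their exons share 211 bases at chr19:14529560-14529770, which belong to an untranslated part of the first exon of 1 DNAJB1 isoform and to the first exon of TECR-201 and other TECR transcripts. The noncoding transcript TECR-219 also begins inside DNAJB1, with a first exon at chr19:14517085-14517384 that falls in a DNAJB1 intron. The microRNA gene MIR639, at chr19:14529543-14529640 on the TECR strand, lies partly in the shared region, and its row held 0 counts in every library other than arsenite replicate 2 of NES, which held 1.

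**Figure D1:**
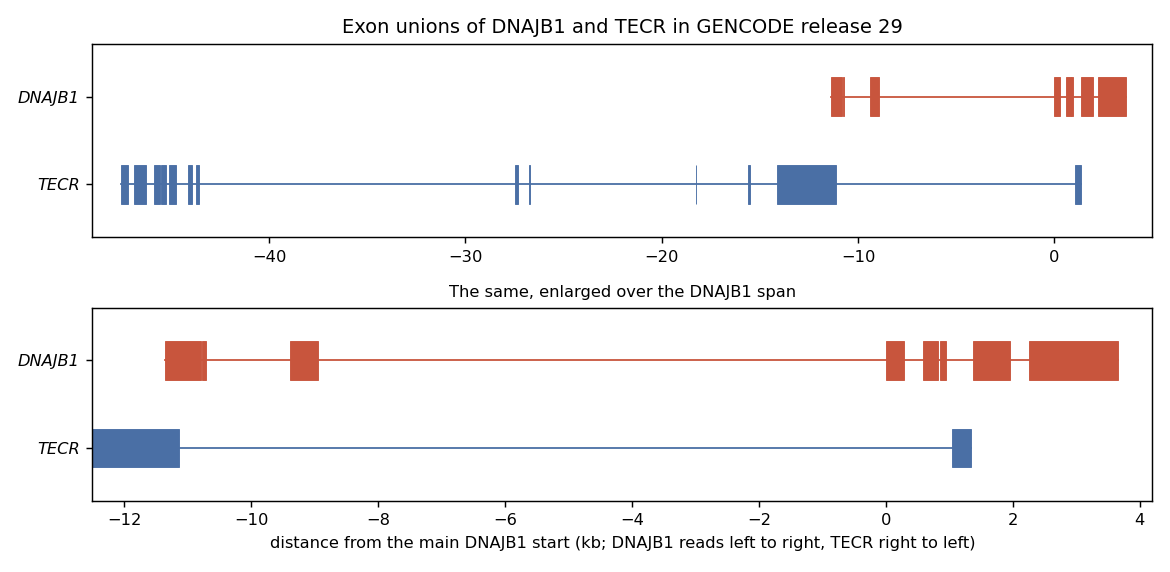
Exons of DNAJB1 (red) and TECR (blue) against the distance in kb from the main DNAJB1 start, over both genes (top) and enlarged over DNAJB1 (bottom). Boxes are exons merged over all transcripts and thin lines the gene spans, and the shared exon bases lie at the far left end of DNAJB1, where the large TECR box begins.

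HSP90AA1 spans chr14:102080738-102139699 (minus) and WDR20, which encodes a partner of the deubiquitinases USP12 and USP46, spans chr14:102139503-102224847 (plus). They share 197 exon bases at chr14:102139503-102139699, in an untranslated part of the first exon of 2 HSP90AA1 isoforms and in a noncoding WDR20 transcript. At its other end WDR20 shares 194 exon bases with MOK, a protein kinase gene on the minus strand, at chr14:102224601-102224794. The other 6 genes have no gene on the opposite strand of their span. They are HSPA8 at chr11:123057489-123063230 (minus), HSPA1A at chr6:31815464-31817946 (plus), HSPA1B at chr6:31827735-31830255 (plus), HSPH1 at chr13:31134974-31162388 (minus), BAG3 at chr10:119651370-119677819 (plus) and HSPB1 at chr7:76302544-76304295 (plus).

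The libraries held between 1090308 and 1461067 counts each, and 3 counts in a library correspond to 2.08 to 2.88 CPM, the counts scaled to a common library total. The library kit keeps the strand of the RNA, while for the counting itself the setting on strand is not given in the sources used here. In 38 pairs of a heat shock or chaperone gene and a row whose exons lie opposite to it, the opposite row held more counts in 19, the gene row in 18, and 1 pair was equal. The chaperonin gene TCP1, for example, held 1085 to 1919 counts per library and ACAT2, opposite to it, 315 to 561. The widest gaps went the other way, in pairs chosen here after their values were seen: the row of the ubiquitin gene UBB held 1 to 8 counts per library, and ENSG00000265401, annotated opposite to it, held 4851 to 9853. CCT5, a subunit of the chaperonin that folds actin and tubulin, held 0 to 8 and the opposite row ENSG00000271980 held 638 to 1241. The pairs overlap to unlike degrees, so their tally does not settle the strand setting. Shared bases make up 8.05% of the exon bases of TCP1 and 9.24% of those of ACAT2. They make up 100% of those of ENSG00000265401 and 68.9% of those of ENSG00000271980. Of the listed hepatocyte markers, ALB held 11 to 29 counts, TTR 0 or 1 and APOH none, while the keratin gene KRT8 held 3691 to 8107. The 16 hepatocyte markers summed to 3110 to 5570 CPM in mock and 3920 to 6850 CPM in arsenite libraries, and the 5 markers of other cell types, of which COL1A1 held at most 1 count, to 16.8 to 38.6 and 17.4 to 30.9 CPM. Most of the hepatocyte sum was the single row KRT8, and the next highest row, APOB, held 77 to 145 counts. That sum and its difference between treatments therefore describe KRT8 and not the marker set. Each name in what follows stands for a table row. Whether its counts come from that gene or from the other strand was not tested for these rows, and in bulk libraries a change in cell makeup and a change in RNA per cell cannot be told apart.

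The question of the first comparison was what arsenite did to both rows of the DNAJB1 and TECR pair. The TECR row rose 2.25-fold on average over the 3 lines, and the DNAJB1 row, about which the tests differed, moved by 1.11-fold. TECR held 21 and 14 counts in the NES mock libraries and 44 and 52 after arsenite. In NLS it held 18 and 16 counts in mock and 28 and 30 after arsenite. In G3BP1 it held 17 and 14 counts in mock and 38 and 44 after arsenite. All 6 arsenite libraries lay above all 6 mock libraries, in counts and in CPM, which 844 of the 13108 tested rows (6.44%) also did in CPM. None of the 3 tested members lay wholly below its mock libraries, as 4.97% of tested rows did.

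The average log2 fold change of TECR was 1.17 (SE 0.176, edgeR adjusted p = 2.46e-08), and DESeq2 gave 1.17 as well (adjusted p = 3.64e-06). Together with DNAJB1 it made 2 of the 3 tested rows called at an adjusted p under 0.05, where 38% of all tested rows were called, so that a call by itself was common in this comparison. What set TECR apart from DNAJB1 was the size of its change. In group means TECR stood at 38.7 ± 10.1 CPM in NES after arsenite, 33.7 ± 1.62 in G3BP1 after arsenite and 21.0 ± 0.312 in NLS after arsenite (SD, n = 2). The mock groups followed with 14.6 ± 2.46 CPM in G3BP1, 13.2 ± 3.27 in NES and 13.1 ± 1.24 in NLS. The first and second groups in this order did not differ beyond their spread, nor did the 3 mock groups among themselves, whereas the NLS arsenite libraries lay between the 2 sets.

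DNAJB1 held 280 and 286 counts in NES mock and 352 and 258 after arsenite. It held 276 and 273 counts in NLS mock, with 277 and 382 after arsenite. In G3BP1 it held 208 and 193 counts in mock and 233 and 255 after arsenite. In CPM the mock libraries ran from 177.3 to 221.6 and the arsenite libraries from 199.7 to 264.7, so the treatments overlapped. The average log2 fold change was 0.15 (SE 0.0612), with an edgeR adjusted p of 0.0468 and a DESeq2 value of 0.15 (adjusted p = 0.123) that was not called. Leaving out any 1 of 8 libraries ended the edgeR call, with adjusted p-values from 0.0564 to 0.204: NES mock replicate 1, NES arsenite replicate 1, either NLS mock replicate, NLS arsenite replicate 2, G3BP1 mock replicate 2 and either G3BP1 arsenite replicate. DNAJB1 was the most counted of the 10 rows, at 58.6 ± 6.48 CPM per kb of exon over the 12 libraries (SD), and TECR was next with 3.78 ± 1.89.

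**Figure D2:**
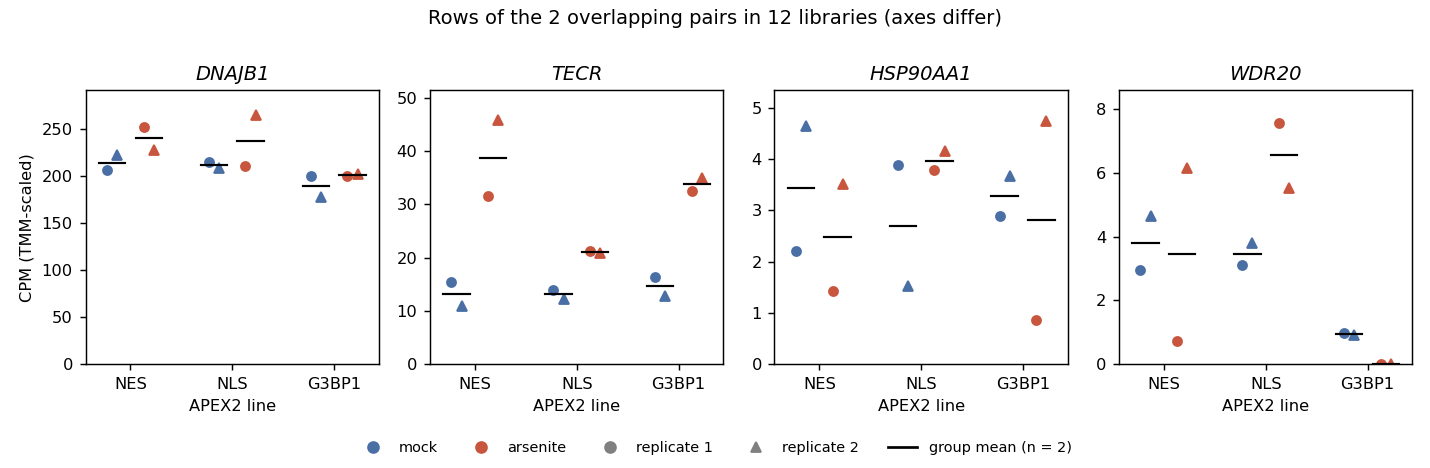
CPM of DNAJB1, TECR, HSP90AA1 and WDR20 in each of the 12 libraries by line, with mock in blue, arsenite in red, replicate 1 as circles, replicate 2 as triangles and group means (n = 2) as bars. For TECR the arsenite libraries lie at 20.8 CPM or more and the mock libraries at 16.3 or less, the DNAJB1 treatments overlap, and the WDR20 row in G3BP1 lies at 0 to 0.961 CPM.

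In single lines TECR was called in NES, at 1.52 on the log2 scale (SE 0.281, edgeR adjusted p = 6.31e-06), where 20.3% of all tested rows were called. It was also called in G3BP1, at 1.21 (SE 0.300, edgeR adjusted p = 0.00141), against 16.4% of all rows, but DESeq2 did not call it there (adjusted p = 0.0599). In NLS it was 0.68 (SE 0.314, edgeR adjusted p = 0.125), with 17.8% of all rows called. DNAJB1 was called in none of the 3 lines by edgeR, with 0.17 in NES (SE 0.0973, adjusted p = 0.226), 0.17 in NLS (SE 0.0965, adjusted p = 0.222) and 0.093 in G3BP1 (SE 0.108, adjusted p = 0.627). Without NLS arsenite replicate 1 the NLS value of DNAJB1 was 0.32 (edgeR adjusted p = 0.0437), and without replicate 2 it was -0.012. With all libraries, no unadjusted p of these 3 DNAJB1 effects was under 0.05 with edgeR or DESeq2. The joint test of whether the effect differed among lines called no row of the 3, where 0.183% of all rows were called (edgeR adjusted p = 0.727 for TECR, 0.974 for DNAJB1 and 0.785 for HSPA8; DESeq2 adjusted p = 1 for each). Their unadjusted edgeR p-values were 0.154, 0.830 and 0.234, so the lower value of TECR in NLS was not shown to differ from the other lines.

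The ratio of the rows within each library does not depend on the scaling between libraries. TECR made up 4.67% to 7.56% of the counts of both rows in mock libraries and 7.28% to 16.8% in arsenite libraries, and the only arsenite library within the mock range was replicate 2 of NLS. The log2 ratio of TECR to DNAJB1 (0.5 added to each count) was higher after arsenite by 0.99 on average. It was higher by 1.36 in NES, 0.51 in NLS and 1.10 in G3BP1. The exact permutation test, two-sided with labels exchanged within lines, gave p = 0.00926, the smallest that the exchanges within lines can give. With the 2 ratios that were tested, its Benjamini-Hochberg value was 0.0185. The pair was chosen with earlier results of these data known, so these p-values describe the libraries and are no independent test. In these libraries the TECR row rose more on average than the DNAJB1 row.

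**Figure D3:**
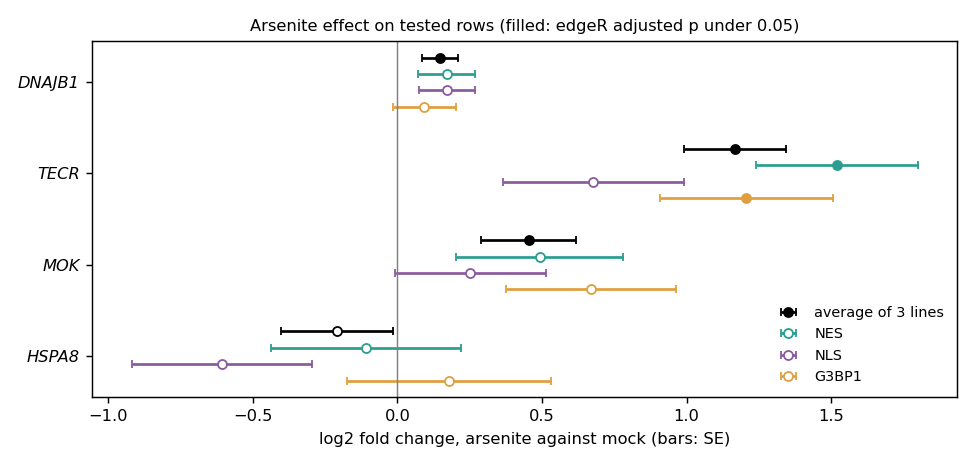
Log2 fold changes (arsenite against mock, horizontal axis) of DNAJB1, TECR, MOK and HSPA8, averaged over lines (black) and in NES, NLS and G3BP1 (colours), with bars of 1 SE and filled points for an edgeR adjusted p under 0.05. TECR lies at 0.68 or above in each line, DNAJB1 at 0.17 or below, and the average of HSPA8 is -0.21.

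The second pair, HSP90AA1 and WDR20, was near the counting limit. HSP90AA1, the stress-inducible cytosolic Hsp90, held 3 and 6 counts in NES mock and 2 and 4 after arsenite. In NLS it held 5 and 2 counts in mock and 5 and 6 after arsenite, and in G3BP1 3 and 4 in mock and 1 and 6 after arsenite. WDR20 held 4 and 6 counts in NES mock and 1 and 7 after arsenite. In NLS it held 4 and 5 counts in mock and 10 and 8 after arsenite, so the arsenite libraries lay above mock in this line alone. In G3BP1 it held 1 and 1 in mock and 0 and 0 after arsenite, where 0 allows up to 3 counts in a library.

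Neither row passed the filter, and in the fit without a filter, which called 12.7% of 38431 rows on average over the lines, neither was called. The average log2 fold change was -0.022 for HSP90AA1 (SE 0.418, edgeR adjusted p = 0.999, unadjusted 0.958) and 0.24 for WDR20 (SE 0.425, adjusted p = 0.799, unadjusted 0.580). By line HSP90AA1 was at -0.49 in NES (SE 0.760), 0.53 in NLS (SE 0.703) and -0.21 in G3BP1 (SE 0.780). WDR20 was at -0.23 in NES (SE 0.697) and 0.88 in NLS (SE 0.600), and no fold is given for G3BP1, whose groups were both under 3 counts. The log2 ratio of WDR20 to HSP90AA1 differed between treatments by -0.39 on average (0.5 added to each count), which the exact permutation test did not call (two-sided, p = 0.481). The NES libraries gave -0.18, those of NLS 0.24 and those of G3BP1 -1.24, where WDR20 was at 0 after arsenite and the value rests on what is added. With 1 or 3 added to each count the average was -0.20 and -0.022, and it ran from -0.75 without G3BP1 arsenite replicate 1 to -0.042 without replicate 2.

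The WDR20 row was lowest in G3BP1. The 4 G3BP1 libraries together held 2 counts and the 8 libraries of the other lines 45, a rate ratio of 0.103 per effective library total (exact 95% interval 0.0121 to 0.393, counting error only). A test of line differences over both treatments, added after these counts were seen, gave an edgeR adjusted p of 0.000407 in the fit without a filter, where 10.9% of rows were called. That test describes the counts that prompted it. The comparison of mock libraries alone did not call WDR20 (edgeR adjusted p = 0.567), so a difference between lines was not shown independently. MOK, at the other end of WDR20, held 16 to 30 counts in mock and 26 to 40 in arsenite libraries. It rose by 0.45 on the log2 scale (SE 0.163, edgeR adjusted p = 0.0204), although DESeq2 did not call it (0.46, adjusted p = 0.0762), and its treatments overlapped.

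The other heat shock rows showed no call for arsenite. HSPA8, the constitutive Hsp70 that also hosts the small nucleolar RNA genes SNORD14C and SNORD14D on its strand, held 13 to 33 counts in mock libraries (median 20.5) and 16 to 24 after arsenite (median 19.5). The treatments overlapped, and the average log2 fold change was -0.21 (SE 0.194, edgeR adjusted p = 0.412; DESeq2 adjusted p = 0.607). In NLS both arsenite libraries, with 17 and 22 counts, lay below the mock libraries with 23 and 33, a log2 fold change of -0.61 that was not called (SE 0.311, edgeR adjusted p = 0.173). HSPA8 stood at 3.39 ± 0.775 CPM per kb, close to TECR.

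HSPA1A and HSPA1B encode the main stress-inducible Hsp70 and are near-identical copies: 71.3% of the 50-base stretches of HSPA1A transcripts also occur in HSPA1B, so reads could be split or lost between them. HSPA1A held 1 to 4 counts in mock and 1 to 8 after arsenite, 15 against 22 in all. HSPA1B held 1 to 3 counts in mock and 0 to 3 after arsenite, 12 against 8 in all. Their average log2 fold changes without a filter were 0.43 (SE 0.474) and -0.62 (SE 0.670), with an edgeR adjusted p of 0.728 for each. These values lay on both sides of 0, and each was within 1 SE of it.

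HSPH1, an Hsp110 that acts as exchange factor for Hsp70, held 0 to 2 counts in mock and 1 to 3 after arsenite. Its log2 fold change was 0.49 (SE 0.673, edgeR adjusted p = 0.728). HSPB1 held 3 to 6 counts in mock and 2 to 10 after arsenite, with a log2 fold change of -0.043 (SE 0.390, adjusted p = 0.991). The single count of 10 came from NLS arsenite replicate 2, the library that also held the most DNAJB1 counts. BAG3, which couples Hsp70 to selective autophagy, held 0 to 9 counts in mock and 1 to 7 after arsenite, with a log2 fold change of 0.089 (SE 0.447, adjusted p = 0.990). None of the 7 rows that failed the filter was called in the fit without a filter, and none had an unadjusted p under 0.05 there (lowest 0.356, for HSPA1B). Nor did the arsenite effect on any of the 7 pass the joint test of differences among lines, which 0.0598% of rows passed without a filter (lowest unadjusted p 0.0854, for WDR20).

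**Figure D4:**
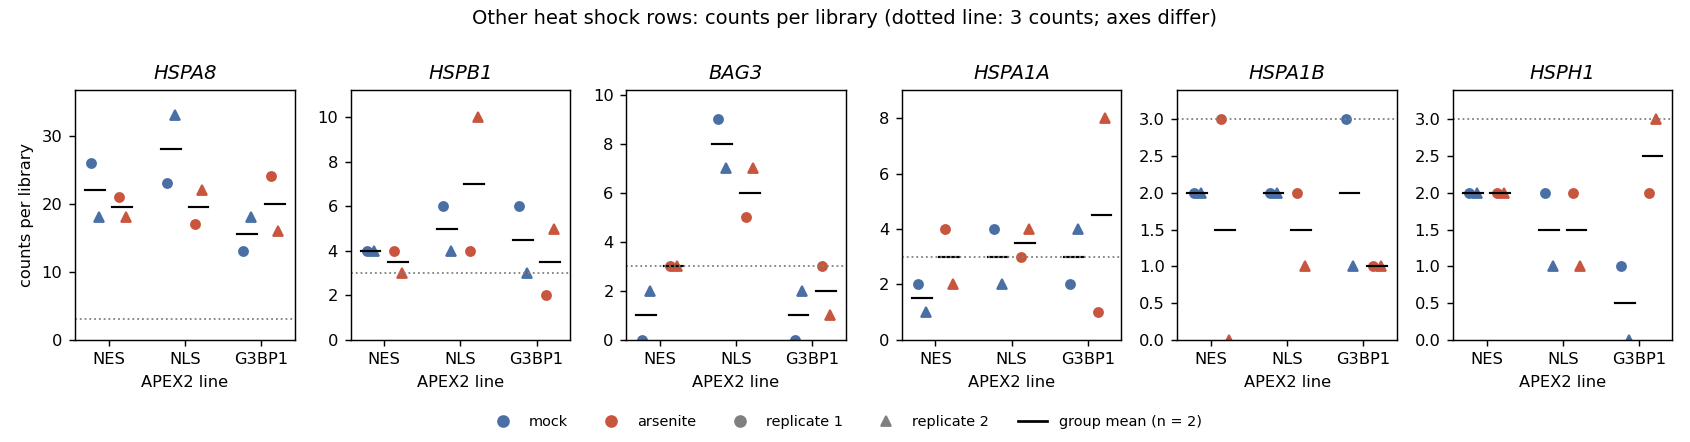
Counts per library of HSPA8, HSPB1, BAG3, HSPA1A, HSPA1B and HSPH1 by line, with mock in blue, arsenite in red, replicate 1 as circles, replicate 2 as triangles, group means (n = 2) as bars and a dotted line at 3 counts. The treatments overlap in every panel over all lines, and the 4 NLS libraries of BAG3 hold 5 to 9 counts against 0 to 3 in the other lines.

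BAG3 was highest in NLS. Its 4 NLS libraries held 9, 7, 5 and 7 counts, above the 0 to 3 of all 8 other libraries. The total was 28 counts in NLS and 14 in the other lines, a rate ratio of 3.63 (exact 95% interval 1.85 to 7.47, counting error only). In mock libraries the fit without a filter gave an edgeR adjusted p of 0.0106 for differences among lines, where 6.54% of rows were called. Over both treatments, in the test added after the counts were seen, the adjusted p was 0.00483, and it was 0.0865 without NLS mock replicate 1. Among the 3 rows that passed the filter none differed among lines in mock, where 22.5% of rows were called (edgeR adjusted p = 0.944 for TECR, 0.348 for DNAJB1 and 0.388 for HSPA8). Over both treatments DNAJB1 stood at 227 ± 19.0 CPM in NES, 224 ± 27.0 in NLS and 195 ± 11.7 in G3BP1 (SD, n = 4), with an edgeR adjusted p of 0.0255 against 32.8% of rows called, and 0.0613 without a filter.

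Per kb of exon the rows below HSPA8 followed in the order HSPB1 (2.21 ± 0.905 CPM per kb, SD over 12 libraries), BAG3 (0.986 ± 0.790), HSPA1A (0.985 ± 0.610), HSP90AA1 (0.593 ± 0.250), HSPA1B (0.526 ± 0.296), WDR20 (0.414 ± 0.351) and HSPH1 (0.157 ± 0.0739). BAG3 and HSPA1A, and HSP90AA1, HSPA1B and WDR20, did not differ beyond their spread. HSPH1, a textbook target of HSF1, had the lowest mean of the 10 and DNAJB1 the highest. The spread of HSPH1 overlapped that of WDR20, whose row was the lower of these in G3BP1 (0.47 against 1.26 CPM).

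A list of 62 other chaperone, cochaperone and ubiquitin genes was read in the same fit. Of the 30 that passed the filter, 14 rose (46.7%) and 3 fell (10%), against 19.4% and 18.6% of all tested rows. Their median log2 fold change was 0.26 and that of all tested rows -0.012. Without a filter 13 of the 62 rose and 1 fell (21% and 1.61%), against 6.8% and 5.87% of all rows. By line 9 of the 30 rose and 1 of the 30 fell in NES, against 10.9% and 9.41% of all tested rows. In NLS 9 of the 30 rose and none fell, against 9.67% and 8.14%. In G3BP1 6 of the 30 rose and 1 of the 30 fell, against 9.22% and 7.15%. The list was chosen with earlier results of these data known, so its counts are a description.

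Among the J-domain cochaperones DNAJB6, which suppresses protein aggregation, rose by 1.70 on the log2 scale (SE 0.388, edgeR adjusted p = 0.000186), from 1 to 5 counts in mock libraries to 5 to 16 after arsenite. DNAJA1, a cytosolic partner of HSPA8, rose by 1.26 (SE 0.330), with 2 to 10 counts in mock and 5 to 17 after arsenite. DNAJA4 rose by 0.84 (SE 0.151), from 19 to 32 counts to 37 to 55. Its treatments did not overlap in counts, although they did in CPM.

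Among chaperones of the mitochondrion and the endoplasmic reticulum 3 rows with large changes rose and 1 fell. HSPD1, the mitochondrial Hsp60, rose by 0.91 (SE 0.106, edgeR adjusted p = 2.83e-12), from 42 to 76 counts in mock to 87 to 159 after arsenite, with no overlap. HSPA9, the mitochondrial Hsp70, fell by 0.66 on the log2 scale (SE 0.175, edgeR adjusted p = 0.00146), from 22 to 38 counts to 10 to 30. In the endoplasmic reticulum HSPA5, its Hsp70, rose by 1.04 (SE 0.234) from 6 to 11 counts to 17 to 23, and HSP90B1, its Hsp90, rose by 0.65 (SE 0.122) from 38 to 58 counts to 58 to 102. HSPA5 and HSP90B1 did not overlap between treatments in CPM. Other tested rows of these compartments, such as TRAP1, DNAJB11 and DNAJC3, were not called on average. TRAP1, the mitochondrial Hsp90, stood at -0.17 (edgeR adjusted p = 0.135). The endoplasmic reticulum cochaperones DNAJB11 and DNAJC3 stood at 0.43 (adjusted p = 0.278) and -0.093 (adjusted p = 0.592). In NES alone TRAP1 was called lower, at -0.55 (edgeR adjusted p = 0.00111). It stood at 0.11 in NLS and -0.025 in G3BP1, neither called, and the joint test of differences among lines did not call it (edgeR adjusted p = 0.226).

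CCT8, a subunit of the cytosolic chaperonin, rose by 1.19 (SE 0.196), from 9 to 17 counts in mock to 20 to 34 after arsenite. BAG6, which guides tail-anchored and misfolded membrane proteins, rose by 0.96 (SE 0.270), and HSPB6, a small heat shock protein, by 0.74 (SE 0.279, edgeR adjusted p = 0.0269). CCT8 and BAG6 did not overlap between treatments in CPM and HSPB6 did. HSF1 itself was not called, at -0.18 (SE 0.157, edgeR adjusted p = 0.390), nor was HSP90AB1, the constitutive Hsp90, at 0.31 (SE 0.264, adjusted p = 0.375). HSPA6, an Hsp70 with little expression outside stress, was listed at 0 in all 6 mock libraries and held 2 counts in all after arsenite, both within the limit that 3 counts set.

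**Figure D5:**
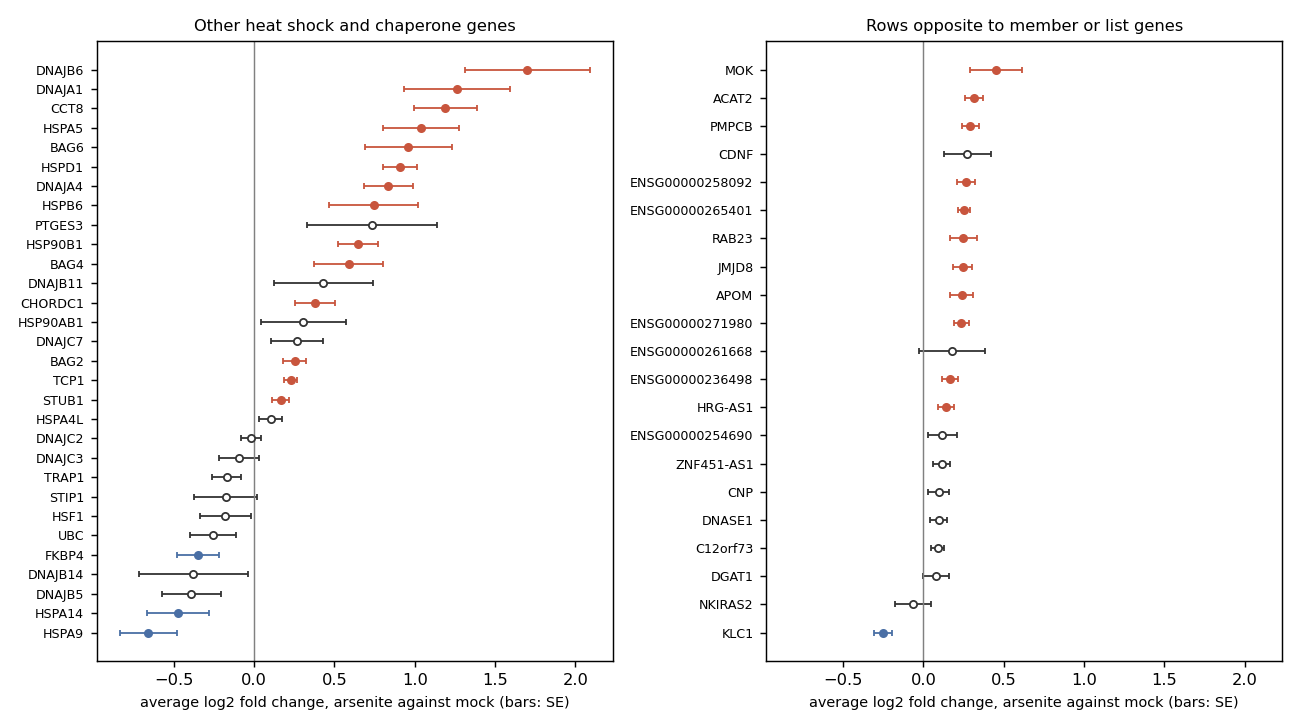
Average log2 fold change (arsenite against mock, bars 1 SE) of the tested rows of the chaperone list (left) and of the tested rows whose exons lie opposite to heat shock or chaperone genes or, for MOK, to WDR20 (right), with red for rows called higher, blue for rows called lower and open points for rows not called by edgeR. On the left 14 rows are called higher and 3 lower, on the right 11 higher and 1 lower, and MOK is the only called row on the right above 0.4.

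Rows opposite to the heat shock and chaperone genes, together with MOK, which lies opposite to WDR20, were read the same way. There were 36 such rows beside TECR and WDR20, 21 passed the filter, and 11 of these, MOK included, rose and 1 fell (52.4% and 4.76%), against 19.4% and 18.6% of all tested rows. Without a filter 25.7% rose and 2.86% fell, against 6.8% and 5.87% of all rows. ITFG2-AS1, opposite to FKBP4 and with 28 to 63 counts per library, could not be matched to a single annotated gene. It is therefore not among the 36 rows or in the tested gene pairs below. After MOK the values were smaller: ACAT2, opposite to the chaperonin gene TCP1, rose by 0.31 (SE 0.0544) and PMPCB, opposite to DNAJC2, by 0.29 (SE 0.0507). ENSG00000258092, opposite to FKBP4, rose by 0.26 (SE 0.0574) and ENSG00000265401, opposite to UBB, by 0.25 (SE 0.0353). RAB23, JMJD8, APOM and ENSG00000271980, opposite to BAG2, STUB1, BAG6 and CCT5, rose by 0.24 to 0.25. KLC1, opposite to BAG5, fell by 0.25 on the log2 scale (SE 0.0578, edgeR adjusted p = 0.000224). The change of TECR, at 1.17, lay outside this range; the difference was not tested.

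In 17 gene pairs both rows were tested, and in 6 both were called. Some genes occur in several of these pairs. Of all single tested rows 38% were called, which is not a share of pairs and cannot be set beside the 6 directly. DNAJB1 with TECR, TCP1 with ACAT2, BAG2 with RAB23, BAG6 with APOM and STUB1 with JMJD8 were higher in both rows, the first of them only as long as DNAJB1 was called, which it was not with DESeq2 (adjusted p = 0.123). For FKBP4 the gene row fell by 0.35 on the log2 scale (SE 0.129) and the opposite row ENSG00000258092 rose. TECR differed in size from DNAJB1 by a log2 change of 1.17 against 0.15, and BAG6 from APOM by 0.96 against 0.24, whereas BAG2 and RAB23 both stood at 0.25.

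The rows whose log2 CPM followed the members most closely over the 12 libraries were found among rows with a mean of at least 20 CPM. They were CTC-338M12.4 (Pearson r = 0.931), SPATA17-AS1 (0.887) and MRPL34 (0.875) for DNAJB1. For TECR they were THUMPD3 and METTL23 (0.934 each) and ARHGAP44 (0.933), with average log2 fold changes of 1.06, 1.09 and 1.24. For HSPA8 they were RFC4 (0.943), USP45 (0.807) and CARD8-AS1 (0.786). All of these libraries share their lines, treatments and depths, 6520 or 6521 rows were compared for each, and the highest of so many values are a description only.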

How the data were processed

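RNA was sequenced from 12 libraries made with a ribosomal RNA depletion and strand-keeping kit, per the labels' protocols. The deposited table holds unscaled counts of reads by gene, and the submitters' processing notes name Trim Galore, Subread, featureCounts, edgeR and build GRCh38.p13, with no versions or strand setting. Columns were matched to samples by title, and 4 of the 16 count columns matched none and were not used. Of the rows, 57004 of 61255 matched GENCODE release 29. Rows were tested with edgeR 4.0.16 in R 4.3.3 (quasi-likelihood F test, TMM scaling, filterByExpr with a minimum count of 10 and a total of 15, Benjamini-Hochberg over all tested rows, called under 0.05). Line and treatment as additive terms left 8 residual degrees of freedom for the average effect, and 1 mean per group left 6 for the other contrasts. DESeq2 1.42.0, other scalings and filters, a replicate block and leaving out each library were alternatives. CPM uses TMM-scaled totals. The fit was tested on simulated data. In every group the replicates differed by more than sampling noise (chi-square test over rows).

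The members and lists were chosen with earlier results of these data known. Named were all members, rows whose exons lie opposite to a member, up to 10 called rows each of the chaperone list and of the rows opposite to it with the largest average change, and the 3 rows most like each member that passed the filter. HSF1, HSP90AB1, HSPA6, UBB, CCT5, TCP1, TRAP1, DNAJB11 and DNAJC3 were named outside these rules, after their values were seen. Genes opposite to a named row were named with it. Sequences and motif windows are from RefSeq (GRCh38.p14).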

Additional observations from a re-analysis of the deposited data

How the results depend on the processing

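The average call of DNAJB1 was lost in most settings. Its average log2 fold change was 0.10 (edgeR adjusted p = 0.185) with total counts and no further scaling, 0.14 (0.158) without a filter, 0.14 (0.102) with a filter at a mean of 1 CPM, 0.15 (0.123) with DESeq2 and 0.15 (0.0641) with a replicate block within lines, and it ranged from 0.11 to 0.20 when 1 library was left out. In each of these 5 settings the number of members called on average was 1 in place of 2, and it was 1 or 2 when 1 library was left out. DESeq2 called 0 members in G3BP1 in place of 1. In NLS 0 or 1 members were called when 1 library was left out, where DNAJB1 ranged from -0.0119 without NLS arsenite replicate 2 to 0.323 without replicate 1, its only call there. For differences among lines in mock, 1 member (BAG3) was called in place of 0 without a filter or at a mean of 1 CPM, and over both treatments 1 was called with the filter and 2 without. TECR was called on average in every alternative run, between 1.05 and 1.25 when 1 library was left out. The number of called rows of the chaperone list was 17, with 12 by DESeq2, 14 without a filter and 13 to 18 when 1 library was left out, and that of the opposite rows was 12, with 10 to 13 over all alternatives.

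Rows of few counts changed sign when 1 library was left out. The WDR20 average ranged from -0.0395 to 0.592, with -0.0287 without NLS arsenite replicate 1, and the HSP90AA1 average from -0.23 to 0.18, with 0.161, 0.0403, 0.0387 and 0.177 in other such fits. Single-line values turned to 0.104 and 0.689 for WDR20 in NES, and to 0.0974 and 0.0460 (NES) and 0.0123 and 0.520 (G3BP1) for HSP90AA1. HSPA8 ranged from -0.296 to 0.158 in NES and, with -0.0204 and -0.211 among its values, up to 0.493 in G3BP1. None of these was called. The cause was not tested.

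Replicate numbers did not pair the libraries: deviations of same-numbered libraries correlated at -0.0666 in NES, -0.0258 in NLS and 0.0187 in G3BP1. With signs of pair differences permuted, the ratio of TECR to DNAJB1 had an exact p of 0.0313, and with the replicate block TECR kept its call. Totals ran from 1090308 to 1461067 counts a library, and 7 of the 10 members were near the counting limit. Whether depth was the reason was not tested.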
